A study of Canis lupus familiaris with 18 samples.

Results

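Right atria of dogs with late heart failure (HF) were compared with right atria of dogs with early HF, using 5 of the 18 Affymetrix Canine_2 arrays of the series. The members were the late HF arrays 1 and 2 and the 3 early HF arrays. The third late HF array of the right atrium (RA) carried ventricular marker levels and its values are shown beside the others only. Late HF was made by 5 weeks of ventricular tachypacing, continuous fast pacing with an implanted pacemaker, and early HF by 2 weeks; the protocol text gives 5 to 6 and 2 to 3 weeks. RA controls (3 arrays) and the right ventricle (RV) in late HF, early HF and control (3 arrays each) completed the series. All dogs were adult mongrels or beagles, and the labels give neither the breed nor the identity of the animal behind an array. Replicates are called biological, and the p-values below therefore cover the differences among these arrays only. Each array was made from a small snap-frozen piece of the chamber, with no sorting of cells.

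Rapid ventricular pacing lowers the pumping function of the heart, raises filling pressure and stretches the atria. A stretched atrium is known for fibroblast activation, deposition of extracellular matrix, infiltration by immune cells and altered energy metabolism of its myocytes, which together favour atrial fibrillation. Matrix genes are made mainly by fibroblasts, while oxidative phosphorylation, the sarcomere and most ion channels belong to the myocyte.

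The unit was the log2 signal of a probe set, in which a difference of 1 is a 2-fold difference in signal. After removal of the 40% of probe sets with the lowest mean signal (at or under 5.31), 25754 probe sets were tested and 10988 genes were represented, each by its probe set of highest mean. Array medians lay between 5.65 and 5.75. The atrial light chain MYL7 had a log2 signal of 13.72 and 13.99 in late HF atria, against 13.88, 13.84 and 13.88 in early HF atria, and 11.65 in the array labelled RA late 3. The ventricular light chain MYL2 had 10.99 and 10.59 in late HF atria, against 9.73, 12.06 and 10.53 in early HF atria, and 14.17 in the array labelled RA late 3. RA controls had 6.51, 6.04 and 9.38, so the 5 arrays compared also lay above every control for MYL2. The 5 arrays compared thus carried high atrial marker levels, while the array set aside was the lowest of the 6 for MYL7 and the highest for MYL2. As signs of RNA quality, the 3' minus 5' log2 signal of GAPDH was 1.51 and 1.29 in late HF atria, against 1.47, 1.29 and 1.62 in early HF atria.

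No gene passed an adjusted p of 0.05 between late and early HF in the right atrium (limma, 0 of 10988 genes in either direction, 0%). The smallest adjusted p was 0.242. At an unadjusted p of 0.05, 709 genes (6.45%) were higher and 228 genes (2.07%) were lower in late HF. Both late HF arrays lay above all 3 early HF arrays for 1079 genes (9.82%) and below them for 697 genes (6.34%), which is the background for the counts that follow. The difference was positive for 5594 genes (50.9%). After quantile normalization of the arrays, 380 genes were higher and 294 lower at an unadjusted p of 0.05, so the share on the higher side was 56.4%, against 75.7% in the values as deposited. Non-overlap then held for 950 genes above (8.65%) and 894 below (8.14%). The count of higher genes was 286 without late array 1, 1303 without late array 2, 1180 without early array 1 and 367 without early array 2. Without either late array, the arm left is 1 array that is assumed to vary like the other groups. The count of lower genes was 682 without late array 2 and 652 without early array 1. The median standard error (SE) of a difference was 0.13, and the median half-width of a 95% interval was 0.28 log2 units.

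The tilt towards higher values lay among genes of strong signal. In the 2747 genes of the top signal quartile (mean signal from 7.99 to 13.95), the median difference was 0.13, and 509 genes (18.5%) lay above the early HF arrays against 60 (2.18%) below. In the lowest signal quartile the median was -0.05, with 118 genes (4.30%) above and 265 (9.65%) below. Quantile normalization brought the median of the top quartile to 0.01. Late array 1 and early array 1 had the widest spread of log2 values, with SDs of 1.90 and 1.88, and the lowest SD over the series was 1.78.

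EDNRA, the endothelin A receptor through which endothelin constricts vessels and drives growth of cardiac cells, had the smallest p. Its log2 signal was 8.28 and 8.49 in late HF atria, against 7.67, 7.55 and 7.32 in early HF atria. Both late HF arrays lay above every early HF array, at levels near those of the RA controls, which had 8.32, 8.45 and 8.27. The difference was 0.87 (SE 0.14, 95% interval 0.58 to 1.16, adjusted p = 0.242). A second EDNRA probe set gave 0.13, so the probe sets of this gene differed in size. In the ventricle, EDNRA averaged 7.65 in late HF and 7.25 in early HF, without overlap. EDNRB, the endothelin B receptor, had 5.50 and 5.60 in late HF atria, against 5.66, 5.86 and 5.72 in early HF atria, a difference of -0.20 (SE 0.15, adjusted p = 0.718).

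The other 14 genes of smallest p on the higher side had differences between 0.49 (WDR70) and 1.04 (RPL26L1), with adjusted p between 0.399 and 0.430. RPL26L1, a ribosomal protein paralogue, had 9.12 and 8.84 in late HF atria, against 7.86, 8.34 and 7.63 in early HF atria, a difference of 1.04 (SE 0.22), and its second probe set gave 0.55. CRBN, the substrate receptor of a cullin ubiquitin ligase, had 9.02 and 8.84 in late HF atria, against 8.49, 8.27 and 8.11 in early HF atria, a difference of 0.64 (SE 0.15). Its other 2 probe sets lay between 0.51 and 0.63. ANAPC16, a subunit of the anaphase-promoting complex, had a difference of 0.70 (SE 0.15), and SLU7, a splicing factor, of 0.56 (SE 0.13). RPL26L1 may share probe signal with RPL26, so its value is uncertain. WDR70, RBM34, SPAG7, HYPK, TUBA8, SPATA7, DYNLT2B, CRIPT, USE1 and HTATIP2 were the remaining genes of this set. In all 15, the 2 late HF arrays lay above the 3 early HF arrays, which the choice by p favours.

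**Figure D1:**
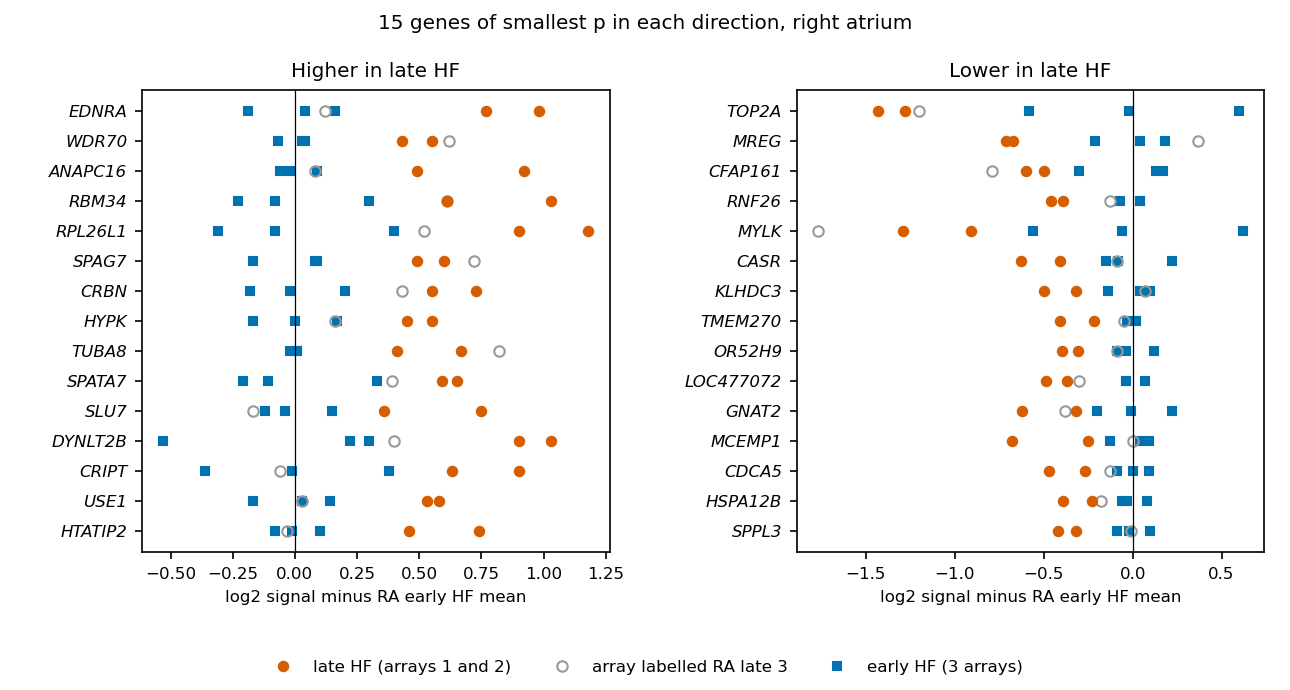
Log2 signal minus the early HF mean for the 15 genes with the lowest p on each side (rows), with late HF arrays 1 and 2 as filled circles, the array labelled RA late 3 as open circles and the 3 early HF arrays as squares. The filled circles of EDNRA lie 0.77 and 0.98 above the early HF mean, and those of MYLK lie 1.29 and 0.91 below it.

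TOP2A, the DNA topoisomerase of dividing cells, had the smallest p on the lower side. It had a log2 signal of 5.13 and 4.98 in late HF atria, against 6.39, 5.83 and 7.01 in early HF atria. The late HF values did not overlap the early HF values and were close to those of control atria, at 5.00, 4.76 and 5.10. Late HF and control values lay under the filter limit of 5.31, near background. The mean over all arrays was 5.37, and it was 5.16 without the early HF atria, so TOP2A passed the filter only through the stage in which it was high. No size of difference is therefore given. The adjusted p was 0.267. It is not read as support, because the early HF values that enter the test also brought the gene past the filter.

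TOP2A belonged to a list of 21 tested cell cycle genes, of which 7 (33.3%) lay below all early HF arrays and none above, against 6.34% and 9.82% of all genes. The list median was -0.13, against 0.00 for all genes, with 5 of 21 differences positive, against 50.9% over all genes. In 3 of the 7, TOP2A and PBK among them, both late HF arrays lay under the filter limit, which held for 49 of the 697 genes below over all genes. Of the 7, 1 (TOP2A) passed the filter only through the early HF arrays, as did 5 of the 697. AURKB, the kinase of chromosome segregation and cytokinesis, had 6.15 and 6.17 in late HF atria, against 6.52, 6.40 and 6.70 in early HF atria. Its difference was -0.38 (SE 0.11, adjusted p = 0.485), and the stages did not overlap. DLGAP5, a spindle protein, had 6.36 and 6.60 in late HF atria, against 6.77, 6.75 and 7.11 in early HF atria, a difference of -0.40 (SE 0.12, adjusted p = 0.488). PBK, a mitotic kinase, had 5.18 and 5.23 in late HF atria, under the filter limit, against 5.34, 5.55 and 5.53 in early HF atria, just above it (adjusted p = 0.511). CDK1, the kinase that starts mitosis, had 7.73 and 7.11 in late HF atria, against 8.10, 8.25 and 9.05 in early HF atria, a difference of -1.05 (SE 0.53, adjusted p = 0.594). CDCA5, needed for cohesion of sister chromatids but no member of the list, was among the 15 genes of smallest p on the lower side, with 5.06 and 5.26 in late HF atria, under the filter limit, against 5.44, 5.62 and 5.53 in early HF atria (adjusted p = 0.481). Per array, the list median lay at -0.19 in late array 1 and -0.12 in late array 2 relative to the early HF means. Only 3 of the 21 genes were in the top signal quartile.

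MYLK, the myosin light chain kinase that triggers smooth muscle contraction, had 7.48 and 7.86 in late HF atria, against 8.21, 9.39 and 8.71 in early HF atria. The arrays did not overlap, and the difference was -1.10 (SE 0.29, adjusted p = 0.448). Among 16 tested smooth muscle and pericyte markers the median was -0.03, with 3 below and 1 above all early HF arrays. KCNJ8, the pore of the ATP-sensitive potassium channel of pericytes and smooth muscle, was the one above, with 8.61 and 8.86 in late HF atria, against 7.82, 8.13 and 8.21 in early HF atria (difference 0.68, SE 0.25, adjusted p = 0.526). The smooth muscle markers thus held members on both sides. After quantile normalization the list median was -0.17, with 1 above and 5 below. MREG, CFAP161, RNF26, CASR, KLHDC3, TMEM270, OR52H9, LOC477072, GNAT2, MCEMP1, HSPA12B and SPPL3 were the other genes of smallest p on the lower side, with differences between -0.31 and -0.69. Both late HF arrays of MREG and 1 of MCEMP1 lay under the filter limit, so their sizes are uncertain. The 3 other KLHDC3 probe sets gave positive differences, between 0.12 and 0.17, so the direction of KLHDC3 differed between its probe sets. The other SPPL3 probe set gave 0.01, and the 3 others of LOC477072 ran between -0.74 and 0.18.

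Genes of protein breakdown and protein synthesis lay mostly on the higher side, though none passed the test. Of 41 proteasome genes, 15 (36.6%) lay above all early HF arrays and 1 below, and the list median was 0.26. PSMC5, an ATPase of the regulatory particle that unfolds substrates, had 9.75 and 10.11 in late HF atria, against 9.54, 9.27 and 9.37 in early HF atria, a difference of 0.54 (SE 0.14, adjusted p = 0.448). Control atria had 9.99, 10.22 and 9.92, so late array 1 lay between early HF and control and late array 2 within the control range. PSMB4, a subunit of the catalytic core, had 10.92 and 10.76 in late HF atria, against 10.50, 10.50 and 10.45 in early HF atria, a difference of 0.36 (SE 0.10, adjusted p = 0.448). PSMG1, a chaperone of proteasome assembly, had a difference of 0.45 (SE 0.15, adjusted p = 0.498). The median over the list was 0.33 in late array 1, 0.09 in late array 2 and 0.04 in the array labelled RA late 3.

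Of 73 mitochondrial ribosome genes, 26 (35.6%) lay above all early HF arrays and none below, with a median of 0.24. MRPS18C, a protein of the small mitoribosomal subunit, had 9.42 and 9.10 in late HF atria, against 8.72, 8.73 and 8.75 in early HF atria. Its difference was 0.53 (SE 0.15, adjusted p = 0.456), while its 2 other probe sets gave -0.01 and 0.20. MRPL32, of the large subunit, had 7.79 and 7.52 in late HF atria, against 7.21, 7.28 and 7.19 in early HF atria, a difference of 0.43 (SE 0.13, adjusted p = 0.488). Its other probe set gave -0.02, so for both genes the probe sets disagreed. The list median was 0.39 in late array 1 and 0.11 in late array 2.

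Cytosolic ribosomal proteins gave a median of 0.18 over 51 genes, with 15 (29.4%) above all early HF arrays and none below. RPL14, of the large subunit, had 11.88 and 11.61 in late HF atria, against 11.40, 11.37 and 11.44 in early HF atria, a difference of 0.34 (SE 0.12, adjusted p = 0.500). RPS20, of the small subunit, had 12.70 and 12.38 in late HF atria, against 12.21, 11.88 and 12.27 in early HF atria, a difference of 0.42 (SE 0.16, adjusted p = 0.539), and its other 5 probe sets lay between 0.21 and 0.53. Ribosomal protein genes have many pseudogenes, so probe sets may share signal. The list median was 0.33 in late array 1, 0.06 in late array 2 and -0.25 in the array labelled RA late 3.

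Oxidative phosphorylation genes gave a median of 0.13 over 60 genes, with 21 (35.0%) above all early HF arrays and none below. SDHD, the membrane anchor of complex II, had 10.89 and 10.88 in late HF atria, against 10.52, 10.50 and 10.40 in early HF atria. Both late HF arrays lay above every early HF array and every control, which had 10.56, 10.58 and 10.51. The difference was 0.41 (SE 0.10, adjusted p = 0.448). NDUFS5, of complex I, had 11.57 and 11.56 in late HF atria, against 11.31, 11.20 and 11.28 in early HF atria, a difference of 0.30 (SE 0.10, adjusted p = 0.488). NDUFA2 and NDUFA8, also of complex I, had differences of 0.32 (SE 0.11) and 0.22 (SE 0.08). The list median was close in the late HF arrays, at 0.12 and 0.16. Fatty acid oxidation genes had a median of 0.16 over 49 genes, with 5 (10.2%) above and 1 (2.04%) below all early HF arrays. The share above was near that of all genes, which had 9.82% above and 6.34% below. Of the 49, 32 were in the top signal quartile, where 18.5% of genes lay above. ACADS, the short-chain acyl-CoA dehydrogenase, had 8.50 and 8.69 in late HF atria, against 8.34, 8.03 and 8.38 in early HF atria (difference 0.34, SE 0.14, adjusted p = 0.547).

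These high-signal lists moved with the scaling of the arrays. All 60 oxidative phosphorylation genes, 49 of 51 ribosomal protein genes, 61 of 73 mitochondrial ribosome genes and 32 of 41 proteasome genes were in the top signal quartile, where the median of all genes was 0.13. After quantile normalization the medians were 0.03 for oxidative phosphorylation, 0.12 for ribosomal proteins, 0.13 for the mitochondrial ribosome, 0.13 for the proteasome and 0.04 for fatty acid oxidation (2 above and 3 below). Non-overlap above then held for 5 oxidative phosphorylation genes (2 below), 13 mitochondrial ribosome genes (1 below) and 10 proteasome genes (0 below), against 8.65% above and 8.14% below for all genes. Ribosomal proteins then had 9 above and 1 below.

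**Figure D2:**
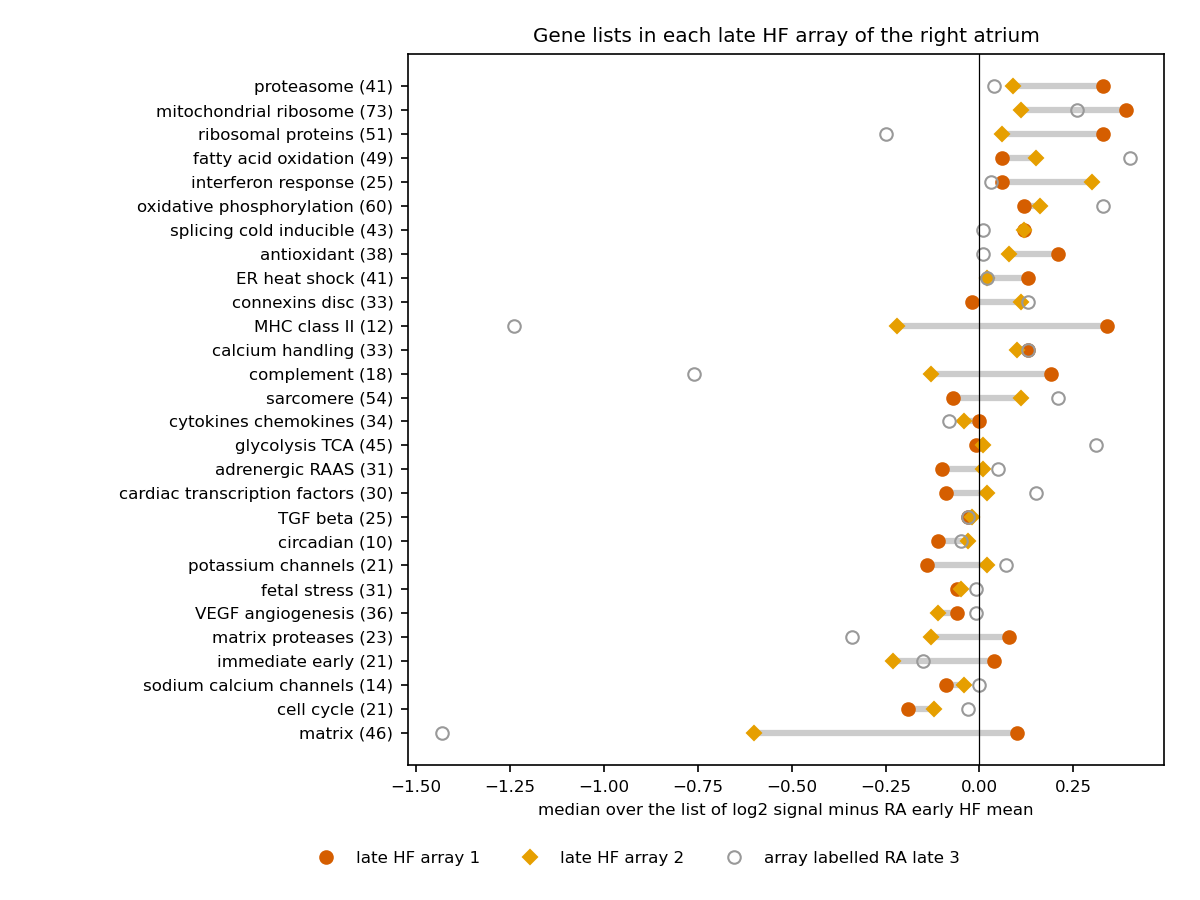
Median over each gene list (number of genes in brackets) of log2 signal minus the early HF mean, for late array 1 (filled circle), late array 2 (diamond) and the array labelled RA late 3 (open circle). Proteasome and mitochondrial ribosome genes lie above 0 in both late HF arrays, while the matrix list lies at 0.10 in late array 1 and -0.60 in late array 2.

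SOD1, the cytosolic superoxide dismutase, had 11.80 and 11.64 in late HF atria, against 11.50, 11.24 and 11.26 in early HF atria, a difference of 0.39 (SE 0.11, adjusted p = 0.453). The 3 other SOD1 probe sets ran between 0.02 and 0.48. SOD2, the mitochondrial enzyme, had a difference of 0.34 (SE 0.13, adjusted p = 0.546), and NQO1, a quinone reductase, of 0.50 (SE 0.18, adjusted p = 0.521), while its other probe set gave -0.19. NCF4, a subunit of the phagocyte NADPH oxidase that makes superoxide, lay on the other side, with 5.47 and 5.61 in late HF atria, against 5.76, 5.87 and 5.98 in early HF atria (difference -0.33, SE 0.11, adjusted p = 0.488). Of 38 antioxidant and oxidase genes, 7 (18.4%) lay above and 2 (5.26%) below all early HF arrays, with a median of 0.11, and after quantile normalization 5 above and 3 below, with a median of 0.04. Splicing and cold-inducible RNA-binding genes had 11 of 43 above (25.6%) and none below, with a median of 0.12. After quantile normalization that list had a median of 0.01, with 4 above and 3 below. PTBP2, a splicing repressor, had 8.20 and 7.97 in late HF atria, against 7.66, 7.54 and 7.40 in early HF atria, a difference of 0.55 (SE 0.14, adjusted p = 0.448). CIRBP, an RNA-binding protein of the cold response, had 7.61 and 7.77 in late HF atria, against 7.34, 7.44 and 6.89 in early HF atria (difference 0.47, SE 0.18, adjusted p = 0.546). Control atria had 8.46, 8.28 and 8.48, so CIRBP stayed under control values in both stages.

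The late HF arrays differed from each other by more in the extracellular matrix list than in any other pathway list. Of 46 matrix genes, 1 (2.17%) lay above and 3 (6.52%) below all early HF arrays, and 9 had a positive difference. The list median was -0.26, made of 0.10 in late array 1 and -0.60 in late array 2, and -1.43 in the array labelled RA late 3. Without late array 2 the median was therefore 0.10, with the opposite sign. The mean level of the list was 9.19 and 8.31 in late HF atria, against 9.34, 8.59 and 9.16 in early HF atria, so late array 1 lay within the early HF range and late array 2 below it. RA controls had mean levels of 7.93, 7.86 and 8.02, under both late HF arrays. After quantile normalization the median was -0.35, with 8 genes below all early HF arrays and none above.

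POSTN, periostin, a matricellular protein of activated fibroblasts, had 9.68 and 5.80 in late HF atria, against 9.52, 7.78 and 9.14 in early HF atria. One late HF array lay above all early HF arrays and the other below them, and the difference was -1.07 (SE 0.82, adjusted p = 0.717). Control atria had 3.97, 4.15 and 4.48, near background. THBS4, thrombospondin 4, a matricellular protein of stressed heart, had 11.04 and 8.31 in late HF atria, against 10.79, 9.0 and 10.61 in early HF atria (difference -0.46, SE 0.57, adjusted p = 0.838). Again the late HF arrays lay on either side of the early HF range, and both lay above the controls at 5.76, 5.55 and 5.46.

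FN1, fibronectin, had 11.90 and 10.51 in late HF atria, against 12.50, 11.49 and 12.55 in early HF atria. Late array 1 lay inside and late array 2 below the early HF range, and the difference was -0.98 (SE 0.37, 95% interval -1.76 to -0.19, adjusted p = 0.546). The 2 other FN1 probe sets gave smaller differences, -0.43 and -0.26. FBN1, the microfibril protein fibrillin 1, had 11.20 and 10.07 in late HF atria, against 11.75, 11.02 and 11.39 in early HF atria (difference -0.75, SE 0.28, adjusted p = 0.544). The 2 other FBN1 probe sets gave -0.90 and -0.22. COL1A1, the main chain of type I collagen, had 11.99 and 10.06 in late HF atria, against 12.51, 10.61 and 12.22 in early HF atria (difference -0.76, SE 0.60, adjusted p = 0.729). COL3A1, of type III collagen, had 12.71 and 11.42 in late HF atria, against 12.98, 11.89 and 12.81 in early HF atria (difference -0.50, SE 0.39, adjusted p = 0.724). Early array 2 was the lowest of its stage for each of these genes, so the early HF arrays too differed among themselves. COL14A1, a collagen that binds to fibril surfaces, was the matrix gene of smallest p and had 7.70 and 7.28 in late HF atria, against 8.48, 7.88 and 7.86 in early HF atria. Its arrays did not overlap, and the difference was -0.58 (SE 0.21, adjusted p = 0.513). The 4 other COL14A1 probe sets ran between -0.57 and -0.04. OGN, the small proteoglycan osteoglycin, went the other way at 8.67 and 7.75 in late HF atria, against 7.87, 7.04 and 8.03 in early HF atria (difference 0.56, SE 0.27, adjusted p = 0.576). TIMP1, an inhibitor of matrix metalloproteinases, had 8.48 and 7.15 in late HF atria, against 8.51, 7.42 and 8.43 in early HF atria (difference -0.31, SE 0.33, adjusted p = 0.812).

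**Figure D3:**
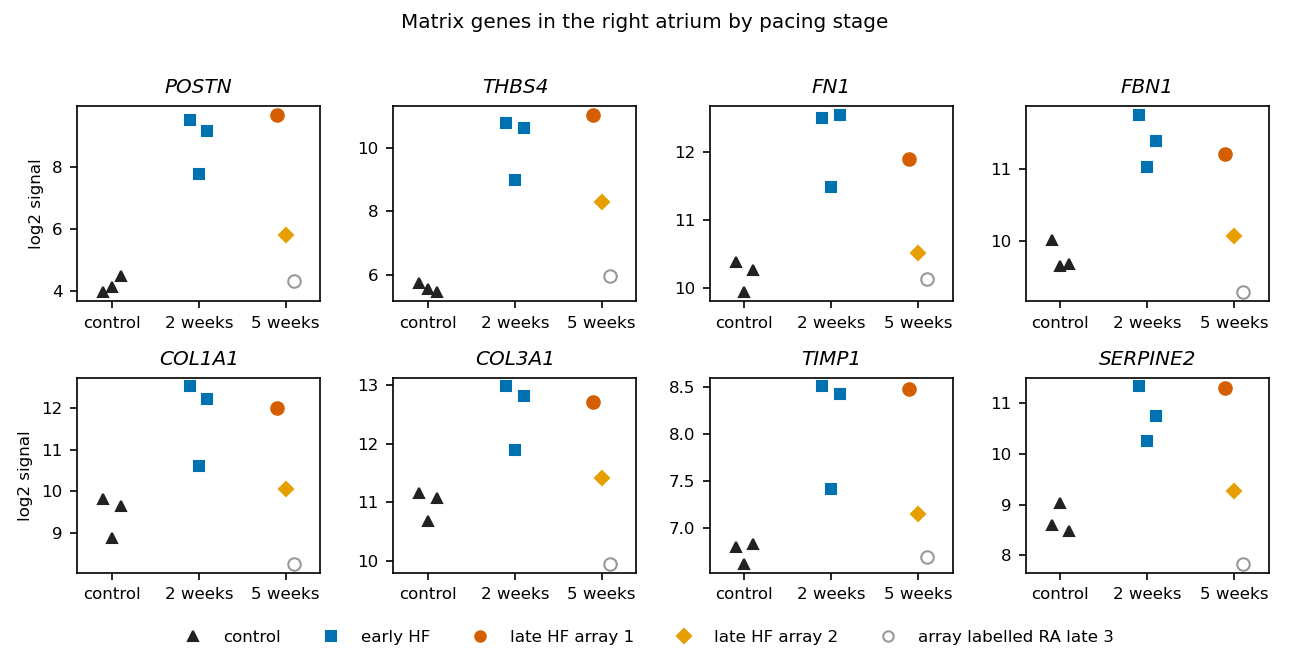
Log2 signal of 8 matrix, protease and inhibitor genes in RA control, early HF (2 weeks) and late HF (5 weeks), 1 point per array. Late array 1 (filled circle) lies inside or above the early HF range in each panel, while late array 2 (diamond) lies below all early HF arrays and the array labelled RA late 3 (open circle) lies lower still.

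Fibroblast markers overlap with the matrix list. Over 19 fibroblast markers the median difference was -0.19, with 0.10 in late array 1 and -0.30 in late array 2, and none above and 1 below all early HF arrays (0 and 3 after quantile normalization). Of the 19, 10 are also matrix genes, and the other 9 had medians of -0.07 in late array 1 and -0.18 in late array 2. The mean level of the 19 was 10.05 and 9.42 in late HF atria, against 10.20, 9.51 and 9.98 in early HF atria. Over 11 myofibroblast markers, 5 of them matrix genes (POSTN, THBS4 and FN1 among them), the mean level was 8.99 and 7.79 in late HF atria, against 8.79, 8.29 and 8.83 in early HF atria. The 6 not in the matrix list had medians of 0.03 in late array 1 and 0.00 in late array 2. In these pieces of whole tissue, fewer cells of a type and less RNA per cell cannot be told apart. The part of fibroblast content in the matrix values was not tested.

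Immune lists differed in which late HF array was the higher. Over 12 MHC class II genes, which present antigen on myeloid and B cells, the median difference was 0.03, with 0.34 in late array 1 and -0.22 in late array 2, and no gene was without overlap. DLA-DQB1, a class II beta chain of the dog, had 9.07 and 8.31 in late HF atria, against 8.63, 7.27 and 8.50 in early HF atria (difference 0.56, SE 0.35, adjusted p = 0.653). Over 16 macrophage and myeloid markers the median was -0.07 and the mean level was 8.25 and 7.71 in late HF atria, against 8.30, 7.59 and 7.85 in early HF atria. LY96, a coreceptor for endotoxin on myeloid cells, had 8.39 and 6.17 in late HF atria, against 6.98, 5.62 and 6.44 in early HF atria (difference 0.93, SE 0.46, adjusted p = 0.585). MRC1, the mannose receptor of tissue macrophages, had 7.75 and 7.68 in late HF atria, against 8.35, 7.83 and 7.97 in early HF atria (difference -0.34, SE 0.19, adjusted p = 0.625). Of the 16 myeloid markers, 7 had a positive difference, so the list held members on both sides. CFI, complement factor I, which inactivates C3b, had 10.06 and 8.41 in late HF atria, against 8.99, 8.43 and 8.41 in early HF atria (difference 0.62, SE 0.35, adjusted p = 0.620). CLU, clusterin, an inhibitor of the terminal complement complex, had 10.80 and 9.73 in late HF atria, against 11.42, 10.94 and 10.29 in early HF atria (difference -0.62, SE 0.34, adjusted p = 0.612). The medians over markers of T and NK cells (8 genes) were -0.19 in late array 1 and 0.03 in late array 2. Of these 8, 0 were in the top signal quartile. Over all genes of the lowest signal quartile the medians were -0.09 in late array 1 and 0 in late array 2. Over 18 complement genes the median was 0.03, with 0.19 in late array 1 and -0.13 in late array 2, and none above and none below all early HF arrays.

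Interferon response genes gave a median of 0.16 over 25 genes, with 20 positive, 4 (16.0%) above all early HF arrays and none below. Here late array 2 had the larger median, 0.30, and late array 1 had 0.06. IFI44L, an interferon-induced gene, had 7.78 and 8.26 in late HF atria, against 7.64, 6.62 and 7.23 in early HF atria. Its arrays did not overlap, and the difference was 0.86 (SE 0.37, adjusted p = 0.550). The other IFI44L probe set gave 0.97. ISG15, the ubiquitin-like protein induced by interferon, had 7.46 and 8.08 in late HF atria, against 6.97, 6.52 and 7.31 in early HF atria (difference 0.84, SE 0.40, adjusted p = 0.576). PSMB9, the interferon-induced catalytic subunit of the immunoproteasome and a member of both the interferon and the proteasome list, had 8.20 and 8.10 in late HF atria, against 7.98, 7.45 and 7.83 in early HF atria (difference 0.40, SE 0.14, adjusted p = 0.513). OAS1, which makes oligoadenylates on sensing double-stranded RNA, had a difference of 0.31 (SE 0.13, adjusted p = 0.550), while its 2 other probe sets gave -0.03 and 0.21. TAP1, a peptide transporter for MHC class I, overlapped, with 7.89 and 7.72 in late HF atria, against 7.80, 6.92 and 7.48 in early HF atria (difference 0.40, SE 0.19, adjusted p = 0.569). The 2 other TAP1 probe sets gave 0.03 and 0.07. CXCL10, an interferon-induced chemokine of the cytokine list and not of this one, had 6.09 and 6.11 in late HF atria, against 5.79, 5.43 and 5.91 in early HF atria (difference 0.39, SE 0.17, adjusted p = 0.550). After quantile normalization the list median was 0.11.

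**Figure D4:**
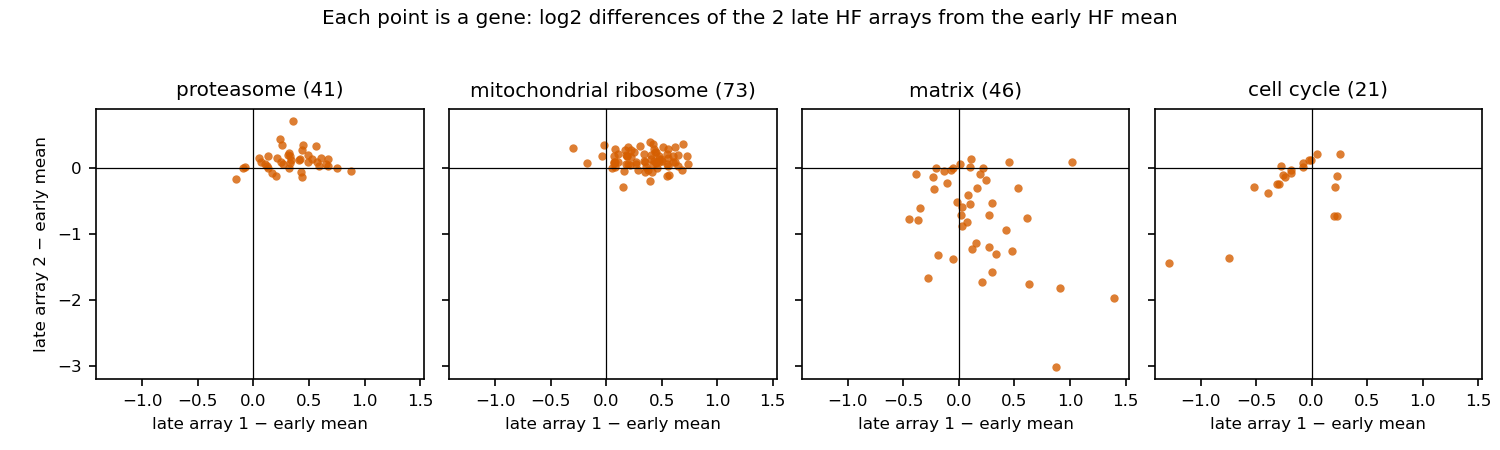
Each point is a gene of 1 of 4 lists, with its log2 difference from the early HF mean in late array 1 (horizontal axis) and in late array 2 (vertical axis). Proteasome and mitochondrial ribosome genes lie mostly to the right of and above 0, while matrix genes lie around 0 horizontally and mostly below 0 vertically. The lowest matrix point is POSTN, which passed the signal filter only through the HF atria.

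No listed marker of heart failure or of the myocyte passed the test. NPPB, the precursor of B-type natriuretic peptide, had 12.86 and 12.47 in late HF atria, against 13.17, 13.08 and 12.87 in early HF atria, a difference of -0.38 (SE 1.03, adjusted p = 0.936). Control atria ran from 8.59 to 12.38, a spread that enters the shared estimate of error. ACTA1, skeletal alpha-actin, a gene of the fetal programme, had 14.07 and 13.79 in late HF atria, against 14.14, 14.10 and 14.14 in early HF atria (difference -0.20, SE 0.17, adjusted p = 0.753). GJA5, the atrial gap junction protein connexin 40, had 9.07 and 9.14 in late HF atria, against 8.46, 8.63 and 8.74 in early HF atria. Both late HF arrays lay above every early HF array and near the controls at 8.97, 8.94 and 9.21, and the difference was 0.49 (SE 0.19, adjusted p = 0.539). Its 2 other probe sets gave 0.27 and 0.28. MYOZ1, a Z-disc protein that binds calcineurin, had 9.04 and 9.41 in late HF atria, against 8.33, 8.64 and 8.06 in early HF atria (difference 0.88, SE 0.28, adjusted p = 0.488). TNNT2, cardiac troponin T, had a difference of 0.26 (SE 0.09, adjusted p = 0.514), and the 54 sarcomere genes had a median of 0.02.

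Atrial markers other than GJA5 included HPGDS, a prostaglandin D synthase, with 8.39 and 9.28 in late HF atria, against 7.43, 8.21 and 7.61 in early HF atria (difference 1.08, SE 0.45, adjusted p = 0.550). CRYM, a thyroid hormone-binding protein, had 9.04 and 10.53 in late HF atria, against 9.18, 8.82 and 8.62 in early HF atria (difference 0.91, SE 0.39, adjusted p = 0.550). Both genes varied by more than 0.8 between the late HF arrays. The median over 13 atrial markers was 0.10, with 2 (15.4%) above all early HF arrays. In the ventricle the median of the same list was 0.41, with 5 above and 0 below, against 6.30% and 6.69% of all genes. HPGDS and CRYM differed there by 1.57 and 2.04, without overlap.

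For KCNIP2, RYR2 and ATP2A2 the 95% interval of the difference included 0. KCNIP2, the accessory subunit of the transient outward current, had 8.88 and 10.21 in late HF atria, against 8.65, 9.14 and 9.70 in early HF atria, a difference of 0.38 (95% interval -0.58 to 1.35). Its 2 other probe sets gave -0.07 and 0.21. RYR2, the calcium release channel, had 10.92 and 11.91 in late HF atria, against 11.71, 11.45 and 11.23 in early HF atria, a difference of -0.05 (95% interval -0.50 to 0.40). A second RYR2 probe set gave -0.39. ATP2A2, the calcium pump SERCA2 of the sarcoplasmic reticulum, had 12.77 and 13.47 in late HF atria, against 13.24, 13.24 and 13.08 in early HF atria, a difference of -0.07 (95% interval -0.41 to 0.28). A second ATP2A2 probe set gave -0.52, outside that interval, so the probe sets of this gene differed in size. At the probe sets of highest mean of KCNIP2, RYR2 and ATP2A2, late array 1 was the lower and late array 2 the higher of the stage. Of the other listed channel genes, KCND3, KCNA5, KCNH2, KCNQ1 and CACNA1C had differences between -0.19 and -0.01, with adjusted p of at least 0.689. NPPA, SLN and CASQ2 were not used here, and KCNJ2, HCN4, KCNJ3, KCNJ5 and TGFB2 fell under the signal filter. DSC2, desmocollin 2 of the intercalated disc, had 10.12 and 10.33 in late HF atria, against 10.04, 9.72 and 9.45 in early HF atria (difference 0.49, SE 0.21, adjusted p = 0.550).

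Both HF stages were also set against RA controls. These comparisons share arrays with late against early HF, so their values are given side by side and no agreement is read from them. Against control, 114 genes (1.04%) were higher and 24 (0.218%) lower in late HF, and 179 (1.63%) were higher and 151 (1.37%) lower in early HF. The late HF total of 138 rested on single arrays, at 0 without late array 1, 1257 without late array 2, and 16, 48 and 29 without RA control 1, 2 and 3. The early HF total of 330 was 134, 91 and 171 without RA control 1, 2 and 3, and 127 without early array 3. Of the 46 matrix genes, 4 were higher in late HF (median 0.72) and 22 in early HF (median 0.94) than in control. Of the 12 MHC class II genes, 6 were higher in late HF (median 1.44) and 9 in early HF (median 1.26). Oxidative phosphorylation genes had 0 lower calls in late HF (median -0.12) and 12 in early HF (median -0.27).

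For 21 genes named earlier for a change in RA early HF against control, all 11 of the higher set had negative and all 10 of the lower set positive late minus early values. The choice used the early HF arrays, which favours these signs, so the values are a description. CCL2, the monocyte chemoattractant, had 9.35 and 7.82 in late HF atria, against 8.81, 8.23 and 9.53 in early HF atria, and was 2.00 above control in late HF (adjusted p = 0.0177) and 2.27 in early HF (adjusted p = 0.00297). LMO2, a transcriptional cofactor of endothelial and blood cells, was 1.17 above control in late HF (adjusted p = 0.0337) and 1.38 in early HF (adjusted p = 0.00494). THBS4 was 4.08 above control in late HF (adjusted p = 0.00813) and 4.54 in early HF (adjusted p = 0.000847). FN1 was 1.00 above control in late HF (adjusted p = 0.158) and 1.98 in early HF (adjusted p = 0.00544). LSMEM1, a small membrane protein, had 7.56 and 7.34 in late HF atria, against 6.71, 6.94 and 6.47 in early HF atria, with differences from control of -0.57 in late HF (adjusted p = 0.148) and -1.31 in early HF (adjusted p = 0.00249). LOC482182 had 8.74 and 9.50 in late HF atria, against 8.03, 7.92 and 8.03 in early HF atria, with differences from control of -1.01 in late HF (adjusted p = 0.0677) and -2.13 in early HF (adjusted p = 0.000847). RAB9B, a small GTPase of endosomal transport, stayed under control in both stages, by -0.90 in late HF (adjusted p = 0.0205) and -1.27 in early HF (adjusted p = 0.00103). Without late array 1 no gene was called in late HF against control. The late arm is then 1 array.

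The right ventricle gave 0 genes past the threshold between late and early HF, with 385 higher (3.50%) and 365 lower (3.32%) at an unadjusted p of 0.05. The difference between the chambers in late minus early HF was tested as an interaction and called 0 genes in limma, with 417 (3.80%) and 228 (2.07%) at an unadjusted p of 0.05. No late minus early value can therefore be called particular to the atrium. The 46 matrix genes had a median of -0.26 in the atrium and 0.32 in the ventricle, where 13 lay above all early HF arrays and none below, against 692 (6.30%) and 735 (6.69%) of all genes. The median of the chamber difference over the list was -0.55, and 11 of 46 genes had an unadjusted p under 0.05. In the atrium the list median was 0.10 in late array 1 and -0.60 in late array 2. The opposite sign of the chambers thus rested on late array 2. For FN1 the ventricle averaged 10.32 in late HF and 9.15 in early HF, and the chamber difference was -2.15 (SE 0.50, unadjusted p = 0.000522, adjusted p = 0.596). For FBN1 it averaged 9.82 in late HF and 9.04 in early HF, with a chamber difference of -1.53 (SE 0.38, adjusted p = 0.629). Proteasome genes had a median of 0.26 in the atrium and -0.02 in the ventricle, where 3 lay above and 1 below all early HF arrays. Mitochondrial ribosome genes had medians of 0.24 in the atrium and 0.11 in the ventricle, and ribosomal proteins 0.18 and 0.02. Oxidative phosphorylation genes had 0.13 in the atrium and 0.16 in the ventricle, where 9 lay above and 2 below all early HF arrays. Interferon response genes had 0.16 in the atrium and 0.23 in the ventricle.

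**Figure D5:**
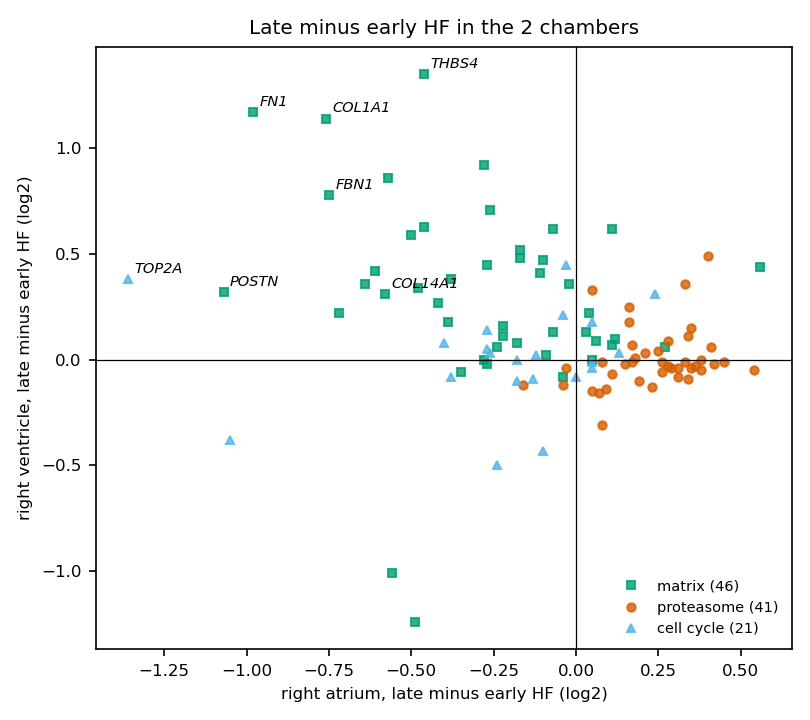
Late minus early HF log2 difference of matrix (squares), proteasome (circles) and cell cycle (triangles) genes in the right atrium (horizontal axis) and the right ventricle (vertical axis), 1 point per gene. Most matrix genes lie left of 0 and above 0, with FN1 at -0.98 and 1.17, while proteasome genes lie right of 0 and around 0 vertically. The atrial matrix median was 0.10 in late array 1 and -0.60 in late array 2.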

How the data were processed

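Total RNA of 18 heart samples was hybridised to 1-colour Affymetrix Canine_2 arrays. The deposited values are log2 signals per probe set, a unit read from the values: the spiked controls BioDn and BioC lay 1.88 apart. Per the submitters' processing notes the tool was MAS5, and version, scaling and further normalization are not given in the sources used here. Ranked values lay close together across arrays (median gap between the highest and lowest array 0.12), closer than a scaling of each array alone would usually leave them, so it is not known whether the authors applied a further step, and the balance of higher and lower values depends on scaling. No further normalization was applied here. Any 2 arrays differed in at least 97.5% of their values.

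Of 43035 probe sets, 111 controls were left out, as was the lowest 40% by mean signal. The platform annotation gave 29254 probe sets a single symbol, 439 several and 13231 none. Only single symbols were used, and other probe sets were tested without a name. Coordinates are not printed, since the array was designed on an older build than the annotation used here. Levels were not compared between genes.

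The limma model (3.58.1, R 4.3.3; trended variance prior, two-sided) held 17 arrays in 6 groups with 11 residual degrees of freedom and left out the array labelled RA late 3. Benjamini-Hochberg adjustment ran over all 25754 probe sets. The number of arrays limits the precision. The fit was tested on simulated data. Alternatives covered the arrays used, filter, variance prior, array weights, quantile normalization, probe set choice, adjustment, replicate block and leaving out single arrays. Leave-one-out fits for the control and chamber comparisons were added after seeing the data.

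Genes are named by rule: the 15 of smallest p in each direction where none passed, up to 4 members of smallest p from each list described, a set of heart failure and channel genes, and 21 genes named earlier for early HF. CDK1 and ISG15, list members outside this rule, were chosen after their values were seen. The members, lists and tests were chosen with earlier results of these data known. Figures were drawn with Python 3.11.15 and matplotlib 3.10.9.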

Additional observations from a re-analysis of the deposited data

Results flagged for a closer look

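In TUBA8, an alpha-tubulin, the late HF arrays lay above the early HF arrays in the atrium (7.31 and 7.57, against 6.91, 6.88 and 6.91) and below them in the ventricle. The chamber difference was 0.79 (SE 0.17, adjusted p = 0.477) and did not pass. In COL14A1 the order was the opposite, below in the atrium and above in the ventricle, with a chamber difference of -0.89 (SE 0.28, adjusted p = 0.771). Over all genes, 74 of 10988 (0.673%) had arrays without overlap in opposite directions in the 2 chambers.

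The array labelled RA late 3, outside the comparison, had ventricular markers above every RA control. MYL2 was at 14.17 and MYL3, the other ventricular light chain, at 13.89. IRX5, a transcription factor of ventricular patterning, was at 8.10. The atrial light chains MYL7 and MYL4 were both at 11.65 there. A cause was not tested.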

How the results depend on the processing

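The counts of late against early HF genes at an unadjusted p of 0.05 (709 higher, 228 lower) were 264 and 74 in a fit of the 5 arrays alone. Lower genes numbered 115 with the 8 RA arrays alone, 381 with no signal filter and 115 with the lowest 60% left out. Higher genes numbered 380 after quantile normalization. Leaving out 1 array gave 286 to 1303 higher and 173 to 682 lower genes, and 0 to 4 genes past the adjusted threshold: EXOSC1, MS4A7, TIFA and NME5 without late array 2 (1 late array left, assumed to vary like the other groups), and TOP2A without early array 2. TOP2A had passed the signal filter only through the early HF arrays, so its call is not read as support. With late array 3 in its labelled group, the total against control was 4 in late HF and 82 in early HF. Leave-one-out totals ran from 0 to 1257 in late HF and from 91 to 311 in early HF. The chamber difference called 0 to 4 genes, the 4 being STYXL2, NRAP, XIRP2 and LMO7 without RV early array 2; the genes named for such calls were chosen after their values were seen. Reversed was KLHDC3, at 0.01 over the mean of its probe sets and 0.12 without probe sets that may cross-hybridise. The causes were not tested. Over the 30 genes of smallest p, 2 of 495 values changed sign, both KLHDC3. Among 17 alternatives, the medians of the proteasome, mitochondrial ribosome, ribosomal protein, oxidative phosphorylation, cell cycle and interferon lists kept their sign, and the matrix median changed sign in 1. The labels do not tie arrays to dogs, so a shared number is no evidence of pairing: deviations from the group mean correlated at 0.41 for number 1 and at 0.46 for number 2, and with 2 late HF arrays these are mirror images, so the check is weak. With a replicate block, 0 genes passed, with 511 higher and 181 lower at an unadjusted p of 0.05.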

Other observations

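Growth factor and vessel genes had members mostly on the lower side, with no test passed. Of 36 tested VEGF and angiogenesis genes, 5 (13.9%) lay below all early HF arrays and none above, against 6.34% and 9.82% of all genes, and the median was -0.07. After quantile normalization the median was -0.14, with 1 above and 8 below. VEGFA, the main angiogenic growth factor, had 8.80 and 8.97 in late HF atria, against 9.34, 9.22 and 9.17 in early HF atria (difference -0.36, SE 0.14, adjusted p = 0.546). PDGFRB, the PDGF receptor of pericytes, had 6.32 and 6.34 in late HF atria, against 6.58, 6.57 and 6.51 in early HF atria (difference -0.22, SE 0.09, adjusted p = 0.550). Over 17 endothelial markers the median was -0.02, with 1 above and none below. EGFL7, secreted by endothelial cells, was the one above, at 9.22 and 9.22 in late HF atria, against 8.88, 8.92 and 8.94 in early HF atria (difference 0.31, SE 0.14, adjusted p = 0.566).

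Among TGF beta pathway genes, 3 of 25 lay above and 3 below all early HF arrays, with a median of -0.04. SMAD6, an inhibitor of BMP signalling, had 8.38 and 8.73 in late HF atria, against 8.76, 8.93 and 8.83 in early HF atria (difference -0.29, SE 0.14, adjusted p = 0.587). BMP6, a ligand of the family, had 7.26 and 7.94 in late HF atria, against 7.14, 6.59 and 7.42 in early HF atria (difference 0.55, SE 0.28, adjusted p = 0.592).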
